A study of Mus musculus with 8 samples.

Results

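Microvillus structure genes are the genes whose proteins build, cross-link, anchor and connect the actin-filled fingers on the apical side of absorptive cells. They were represented here by 10 genes, taken by symbol from the deposited expression table of 52195 genes (Vil1, Espn, Myo1a, Eps8, Cdhr2, Cdhr5, Ush1c, Pls1, Myo7b and Ezr), and 10 of 10 were found. Their levels were described in bulk RNA of small intestine, kidney, lung and liver, each with 2 libraries from male mice of an inbred strain, C57BL/6 in the labels and C57BL/6J in the study's text, aged 6 to 10 weeks. By the study's text the replicates of a tissue came from separate mice and each mouse gave all 4 organs, and no genotype change, transgene or agent is named for any group. The level is FPKM, the fragments of a gene scaled by its transcript length and by the mapped fragments of the library, so that genes of different length can be compared within a library.

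A microvillus holds a core of parallel actin filaments. Villin, espin, fimbrin and Eps8 bundle or cap these filaments, class I myosin and ezrin tie the core to the membrane, and 2 cadherin-related proteins at the tips link each microvillus to its neighbours through a complex with harmonin and a class VII myosin. Enterocytes of the small intestine and proximal tubule cells of the kidney pack such microvilli into a brush border, whereas hepatocytes bear looser microvilli at the bile canaliculi and lung epithelium has short apical microvilli. In bulk tissue, fewer cells of a type and less RNA per cell cannot be told apart, which holds for every level below.

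The members lie on 9 chromosomes of GRCm38, with Cdhr5 and Ush1c on the same one. Between 0% and 3.12% of the exon length of a member is shared with an exon of another annotated gene. Sequences upstream of the start of transcription are shown for the member with the highest level in intestine (Vil1), for the member with the widest gap between intestine and kidney (Myo1a), and for the 2 linked cadherin-related genes (Cdhr2 and Cdhr5), which were later found with different patterns in liver. They are the 250 bases before the start in RefSeq on GRCm38.p6, written 5' to 3' on the strand of the gene. These are chr1:74409134-74409383 on the plus strand for Vil1, chr10:127705006-127705255 on the plus strand for Myo1a, chr13:54701213-54701462 on the plus strand for Cdhr2, and chr7:141276787-141277036 on the minus strand for Cdhr5. Capitals mark a match to the HNF1 motif, to TTTATG of the CDX motif or to CAAAGTCC of the HNF4 motif, on either strand. HNF1, CDX and HNF4 proteins are transcription factors of intestinal, renal or hepatic epithelium.
Vil1: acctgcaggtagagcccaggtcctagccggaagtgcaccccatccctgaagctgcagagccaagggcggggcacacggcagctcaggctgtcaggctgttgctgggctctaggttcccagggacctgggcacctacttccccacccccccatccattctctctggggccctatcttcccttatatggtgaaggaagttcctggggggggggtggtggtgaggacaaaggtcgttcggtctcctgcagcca
Myo1a: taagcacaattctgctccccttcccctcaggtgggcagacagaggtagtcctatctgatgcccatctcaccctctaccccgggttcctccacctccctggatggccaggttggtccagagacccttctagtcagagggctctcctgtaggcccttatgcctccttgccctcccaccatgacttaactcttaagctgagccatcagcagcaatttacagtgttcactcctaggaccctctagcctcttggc
Cdhr2: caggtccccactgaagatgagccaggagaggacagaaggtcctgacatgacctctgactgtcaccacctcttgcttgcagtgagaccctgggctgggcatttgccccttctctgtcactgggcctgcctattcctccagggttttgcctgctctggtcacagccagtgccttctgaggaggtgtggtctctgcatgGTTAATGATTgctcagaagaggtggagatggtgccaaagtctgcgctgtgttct
Cdhr5: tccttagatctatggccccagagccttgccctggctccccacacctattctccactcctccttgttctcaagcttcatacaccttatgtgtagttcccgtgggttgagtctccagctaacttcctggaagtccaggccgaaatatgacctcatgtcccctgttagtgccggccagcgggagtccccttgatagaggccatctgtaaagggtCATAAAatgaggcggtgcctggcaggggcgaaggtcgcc
The HNF1 motif occurred once, as GTTAATGATT from 54 bases before the start of Cdhr2, and the CDX letters occurred before Cdhr5, as CATAAA on this strand from 39 bases before its start. Of the 8 members with a sequence in the table used, 1 held the HNF1 letters, 2 (Espn and Cdhr5) the CDX letters and 0 the HNF4 letters. These members have 10 upstream sequences between them, of which 1, 2 and 0 held the letters. Among all 32851 upstream sequences of the same length the shares were 0.371%, 10.8% and 1.20%, in the same order. A match of letters describes the sequence and is not evidence of binding, and its absence concerns this window alone.

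The depth implied by the steps of the low values lay between 9164187 and 21444675 reads per library. Of the 80 values of the members, 50 amounted to 1000 reads or fewer, and 50 of 50 were whole reads within 0.05. A count of 3 reads, the floor below which a value was not told from 0, corresponded to an FPKM between 0.0113 and 0.120 for the members, and 4 values were below it. These floors cover counting error only. Mitochondrial genes and their pseudogenes took 63.1% and 68.4% of the summed FPKM in kidney, 48.8% and 48.7% in small intestine, 43.6% and 40.5% in liver and 25.4% and 22.8% in lung, which lowers the other values of a library accordingly.

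The tissues carried the markers of their absorptive or parenchymal cells. The summed FPKM of 6 enterocyte markers was 6536 to 8394 in small intestine and 17.7 to 73.3 elsewhere, and that of 6 proximal tubule markers was 1199 to 1716 in kidney and 34.1 to 336 elsewhere, where the upper end is Aqp1 in lung. The sum of 5 hepatocyte markers was at least 39439 in liver, and that of 6 alveolar and club cell markers at least 60359 in lung. Tissue sums also differed for cells other than these. General epithelial markers (5 genes) summed to 1930 to 2375 in small intestine, 92.7 to 109 in kidney, 222 to 249.4 in lung and 148 to 162 in liver. Pancreatic acinar markers (5 genes) summed to 978 to 2099 in small intestine and at most 77.0 elsewhere. Their part in the levels below was not tested.

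The members together were most abundant in small intestine. Their summed FPKM was 1506 and 1948 in small intestine, 199.9 and 166 in kidney, 84.6 and 86.3 in lung, and 20.1 and 22.2 in liver. As a share of the FPKM of all genes this was 0.220% and 0.295%, 0.0309% and 0.0214%, 0.0162% and 0.0167%, and 0.00322% and 0.00355%, in the same order. The libraries of the 4 tissues did not overlap in either quantity, and the nearest were kidney replicate 2 and the lung libraries in the share of all FPKM.

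**Figure D1:**
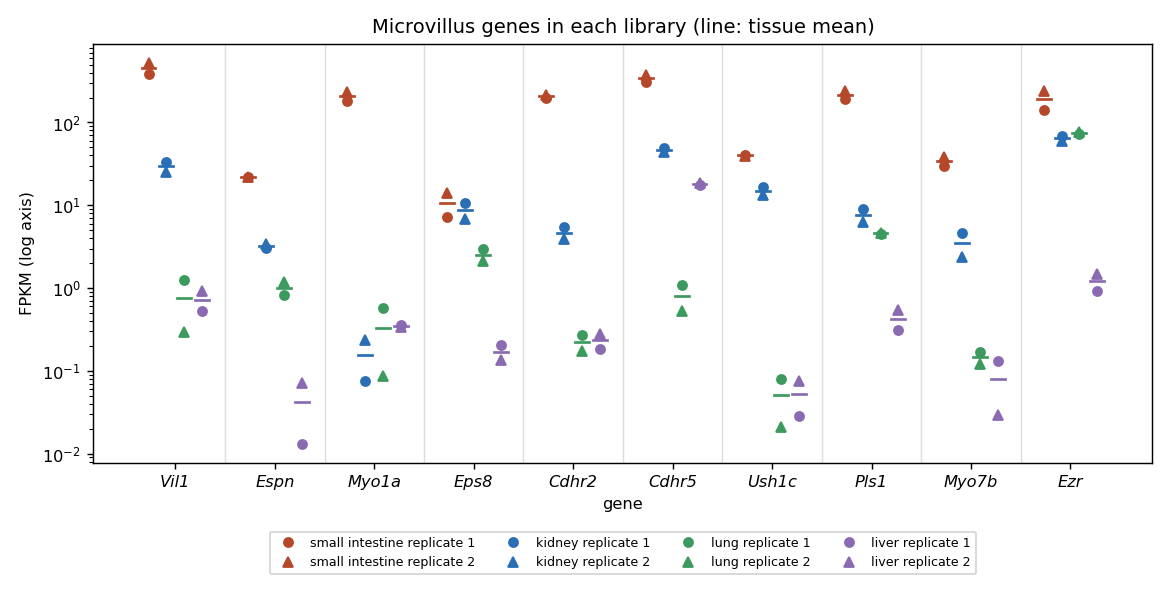
FPKM of the 10 microvillus genes on a log axis, with circles for replicate 1, triangles for replicate 2 and a line at the mean of each tissue. The small intestine points are above all others for 9 genes, Eps8 being the exception, and Myo1a in kidney overlaps lung and is below liver.

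The comparison of small intestine with kidney asked how the same structural genes are expressed in the 2 tissues with a brush border. Of the 10 members, 9 were higher in small intestine and 0 were lower, by limma on log2(FPKM + 1) with Benjamini-Hochberg adjustment (adjusted p under 0.05 over all 16328 genes tested and a difference over 1 on the log2 scale). Among all genes tested, 18.8% were called higher and 10.7% lower in this comparison. The 9 include Myo1a, which passed the filter on low values through small intestine alone. The median log2 difference was 2.94 over the members and 0.18 over all genes tested. The span over the members was wide, from 0.23 for Eps8 to 7.49 for Myo1a, so the tissues differed in the make-up of the set as well as in its amount. Without regard to the fit, 9 of 10 members, all but Eps8, had both small intestine libraries above both kidney libraries, as had 44.6% of all genes tested, or 36.99% with median-of-ratios scaling and 29.6% with mitochondrial genes left out, where the same 9 members were separate. With 2 libraries against 2, an exact permutation test of a single gene cannot go below p = 0.333, and the calls rest on the spread shared across all 8 libraries in the fit.

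Among the core bundlers, Vil1 encodes villin, which bundles and severs actin, and lies on chromosome 1 from 74409376 to 74435559. Its FPKM was 381 and 523 in small intestine, 33.4 and 25.4 in kidney, 1.24 and 0.295 in lung, and 0.522 and 0.927 in liver. Both small intestine values were far above both kidney values, and these far above the rest. The log2 difference of small intestine from kidney was 3.89 (standard error 0.30, adjusted p = 2.97e-05 from limma).

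Pls1 encodes plastin 1, also called fimbrin, the tight cross-linker of the core, on chromosome 9 from 95752642 to 95845311. It was at 190.3 and 238 in small intestine, 8.98 and 6.24 in kidney, 4.50 and 4.61 in lung, and 0.309 and 0.548 in liver. Small intestine stood far above the rest, and kidney was above lung in the values as deposited. The log2 difference of small intestine from kidney was 4.65 (standard error 0.21, adjusted p = 1.84e-06 from limma). Between the neighbours kidney and lung it was 0.61 (adjusted p = 0.0298), below the size needed for a call, but kidney was called higher with median-of-ratios scaling (1.49) and with mitochondrial genes left out (1.23).

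Espn encodes espin, a bundler that lengthens the core, on chromosome 4 from 152120331 to 152152371. Its values were 21.99 and 21.7 in small intestine, 3.005 and 3.37 in kidney, 0.817 and 1.17 in lung, and 0.0132 and 0.0703 in liver, where 1 and 6 reads were counted. The libraries followed the order small intestine, kidney, lung and liver without overlap. Small intestine exceeded kidney by 2.45 on the log2 scale (standard error 0.17, adjusted p = 1.88e-05 from limma).

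Eps8 encodes a protein that caps and bundles actin at the tips, on chromosome 6 from 137477245 to 137654876. It was at 7.19 and 14.2 in small intestine, 10.5 and 6.84 in kidney, 2.93 and 2.12 in lung, and 0.203 and 0.133 in liver. The libraries of small intestine and kidney overlapped, and those of lung and liver were each apart. The difference of small intestine from kidney was 0.23 (standard error 0.33, adjusted p = 0.606 from limma), and it was -0.06 with median-of-ratios scaling and -0.24 with mitochondrial genes left out, so no direction was set. A miss of the threshold does not show that the levels were equal, since the small intestine libraries differed by more than the tissue means did.

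Among the membrane links, Myo1a encodes the class I myosin that bridges core and membrane in enterocytes, on chromosome 10 from 127705170 to 127720940. Its FPKM was 180.3 and 235 in small intestine, against 0.0753 and 0.233 in kidney, 0.579 and 0.0867 in lung, and 0.353 and 0.339 in liver. These kidney values rested on 6 and 15 reads. The lung libraries overlapped those of kidney and of liver, while both kidney values were below both liver values. Myo1a passed the filter on low values through small intestine alone. It could be tested only because it was high there, so its log2 difference from kidney of 7.49 (standard error 0.24) is a description, as is its part in the counts of called members. The difference was 9.73 at a pseudocount of 0.1.

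Ezr encodes ezrin, which ties actin to membrane proteins, on chromosome 17 from 6738041 to 6782784. It was at 143 and 243 in small intestine, 68.7 and 59.6 in kidney, 72.9 and 77.2 in lung, and 0.929 and 1.47 in liver. As deposited, both lung libraries were a little above both kidney libraries, and liver was nearly without the transcript. The log2 difference of small intestine was 1.53 from kidney (standard error 0.25, adjusted p = 0.00183) and 1.30 from lung (standard error 0.25, adjusted p = 0.00291), both from limma. Without small intestine replicate 2 the difference from lung was 0.92 and not called. Kidney differed from lung by -0.23 (standard error 0.25, adjusted p = 0.447 from limma), and the sign turned to 0.86 with median-of-ratios scaling and 0.47 with mitochondrial genes left out, none of them called, so no order of these tissues was set.

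In the tip-link complex, Cdhr2 and Cdhr5 encode the cadherin-related partners that join neighbouring microvilli. Cdhr2, on chromosome 13 from 54701461 to 54736662, was at 200.2 and 216 in small intestine, 5.41 and 3.90 in kidney, 0.273 and 0.175 in lung, and 0.185 and 0.281 in liver. Small intestine exceeded kidney by 5.22 (standard error 0.18, adjusted p = 6.95e-07 from limma). Cdhr5, on chromosome 7 from 141269083 to 141276786, was at 311 and 379 in small intestine, 48.5 and 44.2 in kidney, 1.08 and 0.529 in lung, and 17.4 and 18.3 in liver. It was the only member above an FPKM of 2 in liver, and its difference of small intestine from kidney was 2.87 (standard error 0.19, adjusted p = 1.26e-05 from limma).

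Ush1c encodes harmonin, the scaffold of that complex, on chromosome 7 from 46195350 to 46238503. Its FPKM was 40.9 and 39.5 in small intestine, 16.6 and 13.4 in kidney, 0.0798 and 0.0209 in lung, and 0.0284 and 0.0755 in liver. In the lung and liver libraries it was covered by 1 to 3 reads each. The difference of small intestine from kidney was 1.37 (standard error 0.17, adjusted p = 0.000417 from limma), the smallest of the 9 called, and it fell to 0.88 and lost the call with mitochondrial genes left out.

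Myo7b encodes the class VII myosin that carries the complex, on chromosome 18 from 31959234 to 32036961. It was at 30.1 and 38.7 in small intestine, 4.65 and 2.34 in kidney, 0.170 and 0.122 in lung, and 0.132 and 0.0293 in liver. Kidney replicate 1 was well above replicate 2, and both were apart from the other tissues. Small intestine exceeded kidney by 3.02 (standard error 0.27, adjusted p = 6.64e-05 from limma).

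**Figure D2:**
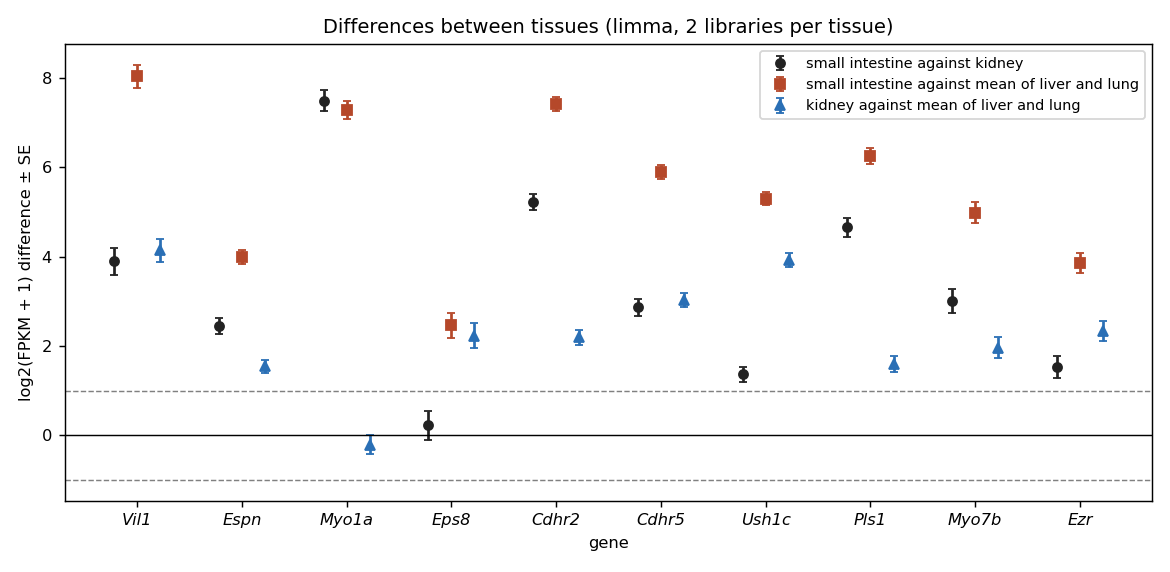
Difference in log2(FPKM + 1) with its standard error for each gene in 3 comparisons, small intestine against kidney, small intestine against the mean of liver and lung, and kidney against that mean. Dashed lines mark the size of 1 needed for a call. Eps8 is near 0 between small intestine and kidney, and Myo1a is near 0 between kidney and the other tissues.

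Shares within a library do not depend on how libraries were scaled, so they show the make-up of the set directly. In small intestine Vil1 led, with 25.3% and 26.8% of the summed FPKM of the 10 members, followed by Cdhr5 with 20.7% and 19.5%. The next were Pls1 (12.6% and 12.2%), Cdhr2 (13.3% and 11.1%), Myo1a (11.97% and 12.04%) and Ezr (9.51% and 12.5%), so no gene dominated.

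In kidney Ezr led, with 34.4% and 36.0%, before Cdhr5 with 24.3% and 26.7% and Vil1 with 16.7% and 15.3%. Ush1c took 8.32% and 8.12% there, against 2.71% and 2.03% in small intestine, and Eps8 took 5.27% and 4.13%, against 0.477% and 0.728%. Lower shares in kidney than in small intestine were found for Vil1, Myo1a, Cdhr2 and Pls1, the last at 4.49% and 3.77%. Higher shares in kidney were found for Ezr, Cdhr5, Ush1c, Eps8 and Espn, the last at 1.503% and 2.04% against 1.46% and 1.12%. The libraries of the 2 tissues did not overlap in share for any of these 9 genes. They overlapped for Myo7b alone, at 1.995% and 1.985% in small intestine and 2.33% and 1.41% in kidney. With 2 libraries against 2 such separation is common. In FPKM, 44.6% of all genes tested had both small intestine libraries above both kidney libraries. Shares of a common sum depend on each other and have no counterpart over all genes here, so the count of 9 is a description.

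Set against villin in the same library, 6 of the other 9 members were higher in both kidney libraries than in both small intestine libraries, namely Espn, Eps8, Cdhr5, Ush1c, Myo7b and Ezr, and Myo1a, Cdhr2 and Pls1 were lower. This split restates the differences above and is no further result. Vil1 itself was 3.89 higher in small intestine, against a median of 0.18 over all genes tested. Most genes would thus be higher per Vil1 in kidney, and their share was not counted. Harmonin stood at 0.107 and 0.0756 Ush1c per Vil1 in small intestine and at 0.499 and 0.529 in kidney. The ratio of Eps8 to Vil1 was 0.0189 and 0.0271 against 0.316 and 0.269, and that of Ezr to Vil1 was 0.376 and 0.465 against 2.06 and 2.35. For plastin it was 0.499 and 0.456 Pls1 per Vil1 in small intestine and 0.269 and 0.245 in kidney. Here too the smallest p of an exact permutation test is 0.333, so these are given as values without a test.

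**Figure D3:**
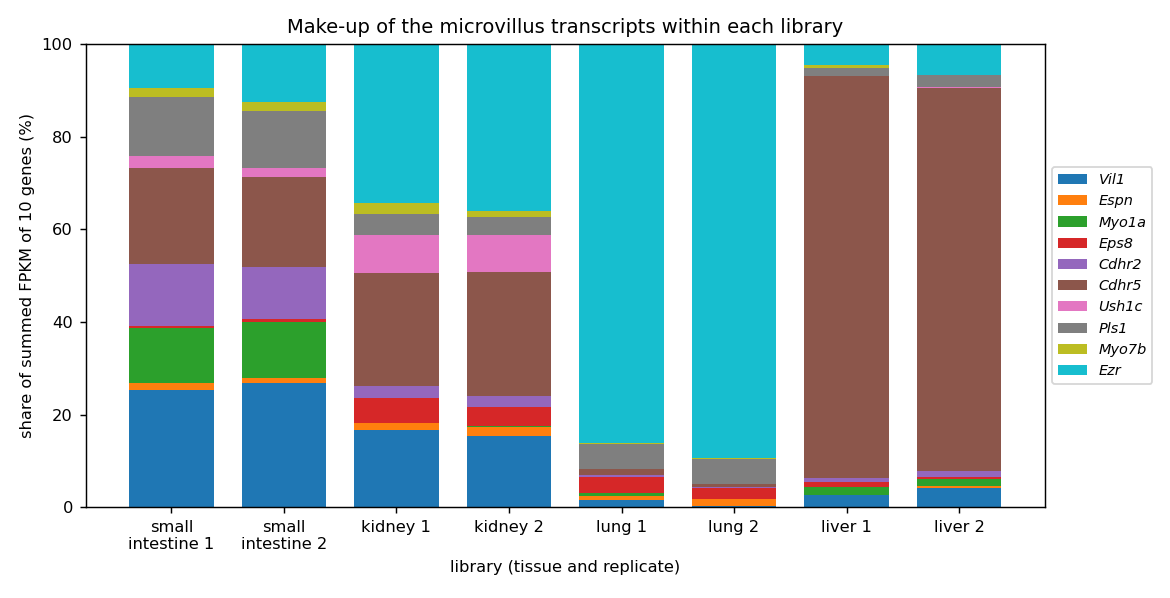
Share of each gene in the summed FPKM of the 10 genes, in percent, as stacked bars for the 8 libraries. The small intestine bars are split among 6 larger parts, Ezr and Cdhr5 fill most of the kidney bars, Ezr takes 86.2% and 89.4% in lung and Cdhr5 takes 86.7% and 82.5% in liver.

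Small intestine and kidney were then each compared with the mean of liver and lung, which lack a packed brush border. In small intestine 10 of 10 members were higher, Myo1a again through the filter, with a median log2 difference of 5.59 against -0.07 over all genes tested, of which 13.4% were called higher. In kidney 9 of 10 members were higher, with a median of 2.21 against -0.31 over all genes, of which 9.52% were called higher. The exception was Myo1a, with a difference of -0.21 (standard error 0.20, adjusted p = 0.429 from limma). The largest differences in kidney were 4.14 for Vil1 (standard error 0.26, adjusted p = 1.22e-05), 3.93 for Ush1c (standard error 0.15, adjusted p = 1.46e-06) and 3.03 for Cdhr5 (standard error 0.16, adjusted p = 5.80e-06), by the same limma fit. The small intestine libraries are shared by the comparison with kidney above, and liver and lung by both of these.

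For 8 of the 10 members the 4 libraries of small intestine and kidney were above the 4 of lung and liver without overlap. This complete separation, small intestine and kidney above, was found for 4.86% of all genes tested. It is given without a p, since each side holds 2 tissues of 2 libraries, which are not 4 independent samples of 1 kind. The exceptions were Myo1a, which was as low in kidney as in lung and liver, and Ezr, whose lung libraries were above those of kidney. With either other scaling 9 of 10 members were separate, Ezr included, as were 6.6% of all genes with median-of-ratios scaling and 8.48% with mitochondrial genes left out. In 9 members, all but Eps8, the 2 small intestine libraries were above the other 6, as in 12.8% of all genes tested.

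Taken tissue by tissue, comparisons added after the values were seen, 10 of 10 members were higher in small intestine than in lung and 10 of 10 higher than in liver, both counts with Myo1a, which passed the filter through small intestine alone. Among all genes tested 10.1% were called higher and 30.6% lower in small intestine than in lung, and 28.3% higher and 7.89% lower than in liver. In kidney 7 members were higher than in lung, where 8.87% of all genes were called higher and 41.4% lower, and Pls1, Myo1a and Ezr were not called. With either other scaling 8 members were called higher than in lung, Pls1 included, and the share of all genes called higher was then 17.9% with median-of-ratios scaling and 13.9% with mitochondrial genes left out. In kidney 9 members were higher than in liver, where 16.2% of all genes were called higher and 6.9% lower, and Myo1a was not called (log2 difference -0.22, standard error 0.24, adjusted p = 0.515 from limma). The smallest called difference of kidney from lung was that of Espn (1.08, standard error 0.17, adjusted p = 0.000944 from limma), and it was 0.95 and not called without lung replicate 1. Eps8 lost its call against lung without lung replicate 2 (1.28, adjusted p = 0.0506 from limma). The smallest called difference from liver was that of Cdhr5 (1.32, standard error 0.19, adjusted p = 0.00104 from limma), and with median-of-ratios scaling it was 0.80 and not called, which left 8 members higher than in liver, beside 12.1% of all genes.

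Lung and liver differed from each other in a few members. Ezr was higher in lung by 5.12 (standard error 0.25, adjusted p = 1.70e-06), Pls1 by 1.97 (standard error 0.21, adjusted p = 7.42e-05) and Eps8 by 1.58 (standard error 0.33, adjusted p = 0.0025), while Cdhr5 was lower by 3.40 on that scale (standard error 0.19, adjusted p = 2.83e-06), all from limma. Among all genes tested 55.5% were called higher in lung and 7.21% lower, and the median log2 difference of all genes was 1.13, so Eps8 exceeded the general shift by little and lost its call with median-of-ratios scaling, at 0.87. Espn differed by 0.93 and was not called, but it was called with a pseudocount of 0.1 (2.96), with limma-voom on recovered reads (4.66) and without lung replicate 1 (1.06). With that scaling 3104 genes were higher in lung and 2998 lower, against 9058 and 1178 with the values as deposited. The differences of Ezr, Pls1 and Cdhr5 were then 3.79, 1.02 and -4.46, the same in direction, with Pls1 just over the size needed for a call.

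The levels outside the small intestine were set beside those of the 6 enterocyte markers, as a percent of the small intestine mean of each gene. Alpi (intestinal alkaline phosphatase), Sis (sucrase-isomaltase) and Lct (lactase) were at 0.244% to 0.252% in lung replicate 1 and at 0.0124% to 0.0498% in lung replicate 2. They were at 0.0922% to 0.119% and 0.0818% to 0.138% in the liver libraries and at 0.0178% to 0.0453% and 0.0825% to 0.0911% in the kidney libraries. The other markers were not as low throughout. Fabp2 (intestinal fatty acid binding protein) was at 0.896% and 1.04% in liver, Anpep (aminopeptidase N) lay between 1.497% and 2.37% in the 6 libraries, and Treh (trehalase) was at 16.8% and 15.3% in kidney.

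Myo1a was at 0.0363% and 0.112% in kidney, 0.279% and 0.0418% in lung, and 0.170% and 0.163% in liver, near Alpi, Sis and Lct in most of the same libraries. Vil1 was at 0.274% and 0.0652% in lung and at 0.116% and 0.205% in liver, and like these 3 markers its value in lung replicate 1 was above that in lung replicate 2. Cdhr2 was at 0.131% and 0.0842% in lung and 0.0888% and 0.135% in liver, and Ush1c at 0.199% and 0.052% in lung and 0.0705% and 0.188% in liver, which is also near these 3 markers. Cdhr5 at 0.314% and 0.153% and Myo7b at 0.495% and 0.354% were somewhat above them in lung. Higher percents were found for Eps8 at 27.4% and 19.9%, Ezr at 37.8% and 40.0%, Espn at 3.74% and 5.34% and Pls1 at 2.10% and 2.15% in lung, and for Cdhr5 at 5.05% and 5.31% in liver. The part of the source of the marker transcripts in the low values was not tested.

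**Figure D4:**
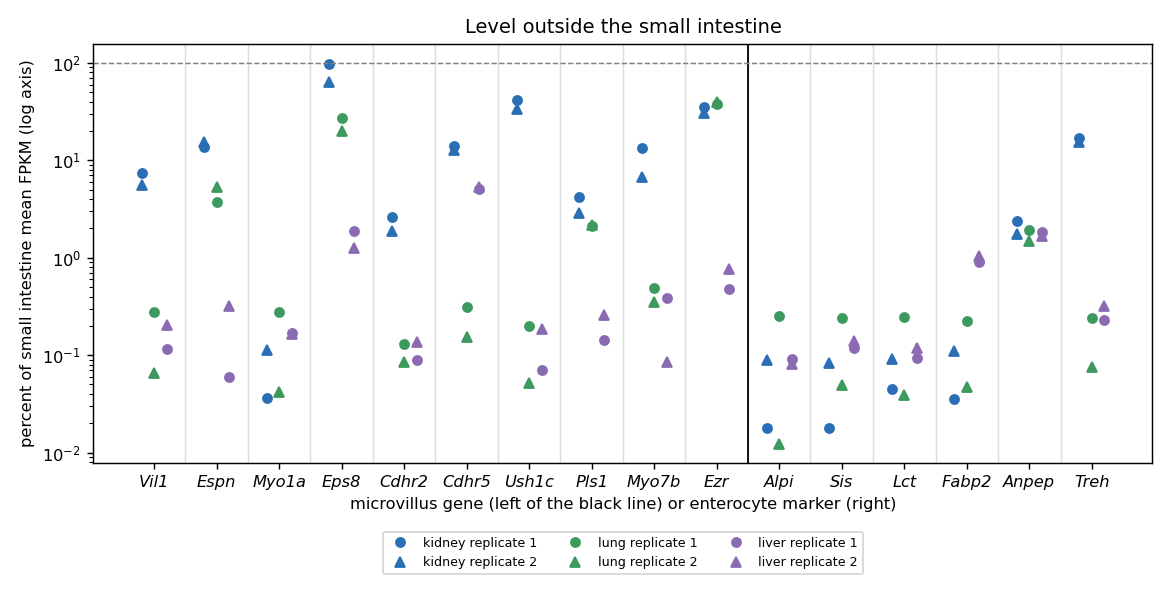
Level in each kidney, lung and liver library as a percent of the small intestine mean, on a log axis, for the 10 members and, on the right, for the 6 enterocyte markers. In lung replicate 1 Vil1 and Myo1a sit at 0.274% and 0.279%, next to Alpi, Sis and Lct at 0.244% to 0.252%, while Anpep is at 1.497% or more in the 6 libraries and Treh is at 16.8% and 15.3% in kidney.

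The leading member of a gene family often differed between tissues. Of 23 paralogues listed, 20 passed the filter on low values, and 7 were higher and 4 lower in small intestine than in kidney, or 6 and 5 with median-of-ratios scaling and 4 and 5 with mitochondrial genes left out. Beside these and the other list counts stand the 18.8% higher and 10.7% lower over all genes tested, and the 7 include Eps8l3 and Avil, which passed the filter through small intestine alone. In the ezrin, radixin and moesin family Ezr made up 96.2% and 97.7% of the family's summed FPKM in small intestine and 59.4% and 69.4% in kidney, where Rdx took 30.7% and 22.4%. The leading form was Msn in lung, at 46.9% in both libraries, and Rdx in liver, at 88.2% and 88.1%. Rdx was lower in small intestine than in kidney, at 2.26 and 2.38 against 35.5 and 19.3 FPKM (log2 difference -3.04, standard error 0.26, adjusted p = 4.79e-05 from limma), opposite to Ezr.

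Plastins were divided in a like way. Pls1 took 96.4% and 97.6% of the plastin FPKM in small intestine and 44.9% and 45.1% in kidney, beside Pls3 (plastin 3) with 45.6% and 43.9%. In lung and liver Pls3 led, and Lcp1, the plastin of leukocytes, took 34.8% and 36.9% in lung and 30.3% and 31.8% in liver. Leukocyte markers (5 genes) summed to 327 to 486 in lung, 56.3 to 78.0 in small intestine, 11.4 to 12.7 in liver and 7.64 to 9.12 in kidney, and their part in the Lcp1 and Msn values was not tested.

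In the villin and gelsolin family Vil1 took 86.3% and 90.2% in small intestine and 48.3% and 48.5% in kidney. Kidney also held Vill (villin-like), at 11.4 and 9.59 FPKM against 0.412 and 0.361 in small intestine (log2 difference -3.05, standard error 0.17, adjusted p = 5.85e-06 from limma). Scin (scinderin) was higher in small intestine, at 31.1 and 32.7 against 10.00 and 5.84, by 1.92 (standard error 0.26, adjusted p = 0.000608 from limma). In lung and liver the family was mostly Gsn (gelsolin), at 99.3% and 99.6% and at 87.7% and 83.4%. Avil (advillin), known from tuft cells, was at 2.48 and 1.56 FPKM in small intestine and at most 0.482 elsewhere, so that it too passed the filter through small intestine alone. The summed tuft cell markers (5 genes) were 10.2 to 13.9 there and at most 1.82 elsewhere, most of the sum being Sh2d6 (10.2 and 7.17), while Il17rb was at 1.48 and 1.08 in kidney and 1.65 and 1.62 in liver against 0.749 and 0.572 in small intestine, and Dclk1 at 0.884 and 0.694 in lung against 0.587 and 0.473.

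Of the summed FPKM of the 7 class I myosins reported here, Myo1a took 84.97% and 86.1% in small intestine but 0.376% and 2.07% in kidney. Myo1c led among them in kidney, with 57.4% and 63.5%, before Myo1d with 24.9% and 18.4%. The class VII pair was less divided between the brush border tissues, with Myo7b at 85.3% and 89.2% in small intestine and 68.9% and 70.7% in kidney, and Myo7a leading in lung and liver.

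In the Eps8 family the leading form differed between small intestine and kidney. Eps8l3 was at 49.2 and 127 FPKM in small intestine and 0.164 and 0.331 in kidney, which is 6.01 apart on the log2 scale (standard error 0.39). It passed the filter on low values through small intestine alone, so this is a description. It took 71.4% and 80.9% of the family's FPKM in small intestine, whereas Eps8 took 52.0% and 59.3% in kidney and 10.4% and 9.01% in small intestine. A further form, Eps8l2, took 43.0% and 32.6% in kidney and led in liver, with 87.9% and 92.0%. Between small intestine and kidney Eps8l2 was called higher as deposited (1.08), but not with median-of-ratios scaling (0.80) or with mitochondrial genes left out (0.63). The small intestine libraries differed from each other in Eps8l3 in the same direction as in Eps8. Cdhr3 and Cdhr4, cadherin-related genes of lung here, were at 10.4 and 10.1 and at 3.79 and 3.71 FPKM in lung and at most 0.0693 in the other tissues, and the summed markers of airway ciliated cells (5 genes) were 75.5 to 79.5 in lung and at most 1.47 elsewhere.

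**Figure D5:**
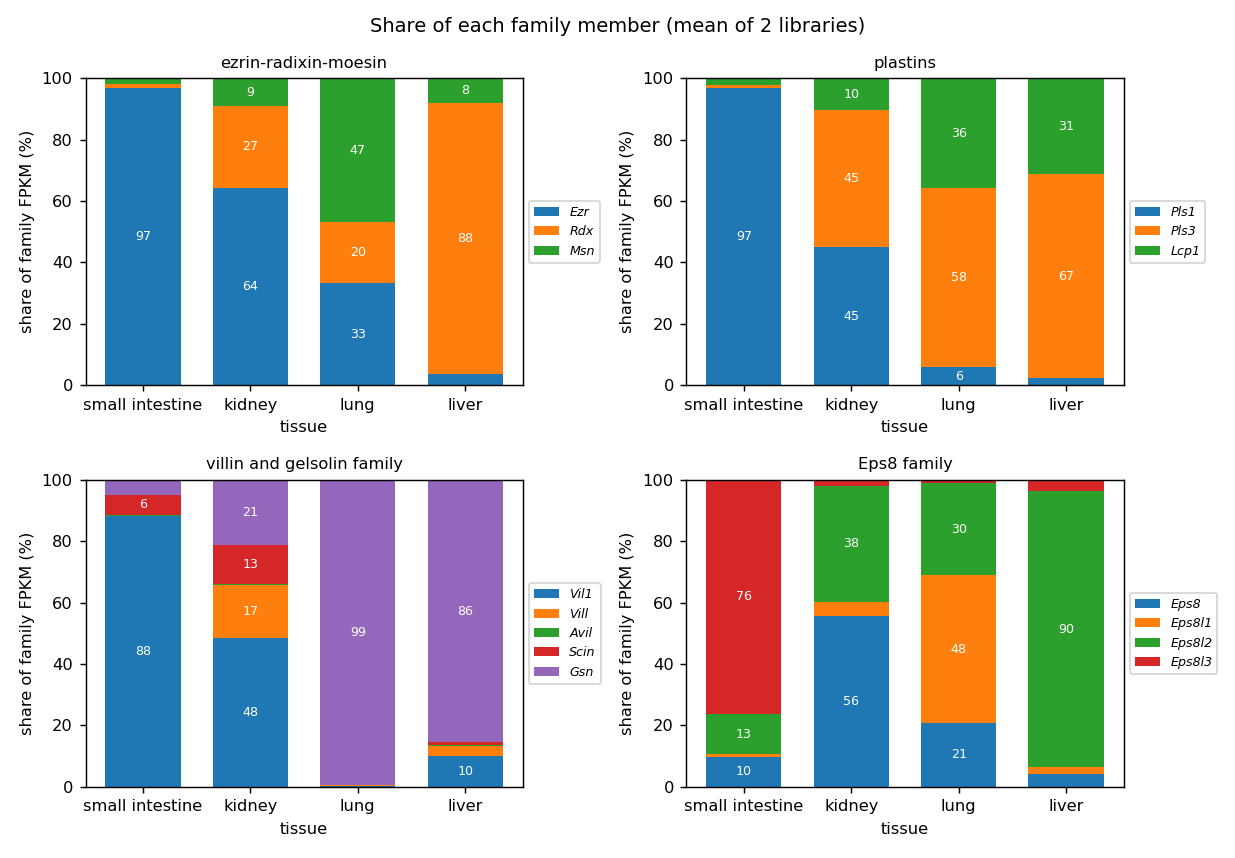
Mean share of each gene in the summed FPKM of its family, in percent, for 4 families and 4 tissues, with 2 libraries per tissue. Ezr, Pls1, Vil1 and Eps8l3 fill most of the small intestine bars, and in kidney Ezr, Pls1 and Vil1 keep a large part while Eps8 takes the place of Eps8l3 as the largest part of its family.

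Of 10 listed adhesion and tip partners, 6 were higher and 1 lower in small intestine than in kidney, or 5 and 1 under either other scaling. The 6 include Eps8l3. Beside Eps8l3, the called genes with the widest differences were Baiap2l1 (2.48, standard error 0.23, adjusted p = 7.88e-05 from limma), which shapes the membrane at the tips, and Myo1d (2.45, standard error 0.31, adjusted p = 0.000399 from limma). The one that was lower was Tmigd1, an adhesion protein of the microvillus base, at 2.07 and 20.1 FPKM in small intestine against 117 and 141 in kidney (log2 difference -4.01, standard error 0.75, adjusted p = 0.00342 from limma), with a wide gap between the small intestine libraries. Calml4, a light chain of the adhesion complex named after its values were seen, was not called, at 61.9 and 56.6 against 41.7 and 50.6.

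Of the 10 listed ezrin relatives, kinases and scaffolds, 2 were higher and 4 lower in small intestine than in kidney. These counts were 2 and 5 with median-of-ratios scaling and 2 and 6 with mitochondrial genes left out. Over all genes tested 18.8% were called higher and 10.7% lower as deposited. With the other scalings 2439 and 2246 of 15534 genes, and 2232 and 2704 of 16147, were called higher and lower. The share called higher was thus near that of all genes, and the share called lower was above it. Stk10, a kinase that activates ezrin, was higher (2.11, standard error 0.29, adjusted p = 0.000710 from limma), and the scaffold gene Pdzk1 was lower, at 16.6 and 23.9 against 86.0 and 72.6 FPKM (-1.93, standard error 0.23, adjusted p = 0.000290 from limma). Podxl, the podocyte sialomucin, was lower too (-2.30, standard error 0.44, adjusted p = 0.00368 from limma).

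Among 11 genes of the terminal web and apical actin, 4 were higher and 1 lower. The higher ones were Myh14 (3.61), Actb (2.74), Cobl (2.35) and Myo5b (1.80), with adjusted p from 9.67e-06 to 0.00238 by limma. Actb encodes beta actin and Cobl an actin nucleator of the brush border.

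Genes of the hair bundle, the related structure of inner ear cells, were mostly near 0, and 3 of 12 passed the filter. Of these Myo7a and Triobp were called higher in small intestine, at 1.26 and 1.01, and both lost the call with mitochondrial genes left out, Triobp also with median-of-ratios scaling. Named after their values were seen, Ush1g, Cdh23, Pcdh15 and Myo15, which act in the tip links or as motor of hair cells, stayed at or below 0.163 in every library, and Grxcr1 was listed at 0 in all 8.

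Among 8 transcription factors of intestinal or renal epithelium, 5 were higher and 1 lower in small intestine than in kidney. Cdx1 (5.84), Klf5 (4.96), Hnf4g (4.81) and Cdx2 (4.72) had the widest differences. Cdx1 and Cdx2 passed the filter on low values through small intestine alone, and Hnf4g, at 1.65 and 0.615 in kidney, would not have passed without small intestine, so these differences are a description, and Klf5 had an adjusted p of 1.01e-06 by limma. Cdx2 was at 23.9 and 27.5 FPKM in small intestine and at most 0.0256 elsewhere. Hnf4a, also named after its values were seen, was found in the brush border tissues and liver, at 58.7 and 79.3 in small intestine, 93.8 and 62.2 in kidney and 61.5 and 60.3 in liver, with at most 0.764 in lung.

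The genes outside the set whose pattern was most like that of Vil1 were sought among 3855 genes with a mean FPKM of at least 10 in small intestine, by the root mean square difference of centred log2(FPKM + 1) over the 8 libraries. The 5 nearest were Smim24 (0.37), Mogat2 (0.47), which encodes an enzyme of dietary fat absorption, Treh (0.54) and Mep1b (0.62), which encode brush border hydrolases, and Fbp2 (0.55). Smim24 was at 1916 and 1795 FPKM in small intestine, 88.6 and 87.8 in kidney, 6.78 and 3.12 in lung, and 2.99 and 2.84 in liver. Of the other members Cdhr2 was nearest to Vil1 (0.82) and Ezr the farthest (2.505). The libraries of a tissue share their cell make-up, so this likeness describes 4 tissues rather than 8 independent points.

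Directions over all genes depended on the scaling, and those of the called members were checked against it. As deposited, 3073 genes were higher and 1750 lower in small intestine than in kidney (63.7% higher), and after median-of-ratios scaling 2439 and 2246 (52.1%). Without the mitochondrial genes and pseudogenes the split was 2232 and 2704 (45.2%) of 16147 genes tested, and 8 of the 10 members were called. These percents are of the called genes, not of those tested. For kidney against the mean of liver and lung the share of higher calls was 36.6% as deposited, 51.6% and 61.0%, in the same order, with 9 members called in each.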

How the data were processed

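RNA of 8 mouse tissue libraries, 2 per tissue, had been sequenced and aligned with STAR 2.5.3a to GRCm38. The deposited values are FPKM per gene, which the authors computed by library size with the fpkm function of DESeq2. The counting step and its use of strand are not given in the sources used here. One table column belonged to each library.

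Values were taken as log2(FPKM + 1) for the 16328 genes with an FPKM of at least 1 in at least 2 libraries, and all 8 libraries were fitted together with limma 3.58.1 (trended variance) in R 4.3.3. A call needed a Benjamini-Hochberg adjusted p under 0.05 over all genes tested and a log2 difference over 1. A fold on this scale understates the change of low genes. The smallest p of exact permutation tests was taken from scipy 1.17.1, two-sided. The fit was tried on simulated data in which the tissues were alike but for a set of genes raised in small intestine. That setting lacks the wide differences between these tissues, so it is not used as support for the calls. Read numbers were worked out from the spacing of low FPKM values and annotated exon lengths, and came out whole for 94.5% to 96.1% of values up to 50 reads, within 0.02. Mitochondrial genes and the pseudogenes that copy them were identified by name and position.

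The members and lists were chosen with earlier results of these data known. All 10 members are named, with some but not all of the listed paralogues and the 5 genes most like Vil1. Of each other list, up to 4 called genes with the widest difference between small intestine and kidney are named. Comparisons between neighbouring tissues were added after the values were seen. The 16 alternatives were a pseudocount of 0.1, no filter on low values, median-of-ratios scaling, mitochondrial genes left out, no variance trend, a replicate block, limma-voom on recovered reads, small intestine and kidney libraries only, and each of the 8 libraries left out. Promoter sequences come from RefSeq on GRCm38.p6, with entries for 8 of the 10 members. One listed gene is counted with its list and not reported here by name.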

Additional observations from a re-analysis of the deposited data

How the results depend on the processing

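The difference of Eps8 between small intestine and kidney changed sign, to -0.057 with median-of-ratios scaling and -0.24 with mitochondrial genes left out, and it lay between -0.22 and 0.67 when 1 library was left out, being below 0 without small intestine replicate 2 or kidney replicate 2. Ush1c lost its call in that comparison with mitochondrial genes left out (0.88). Espn between lung and liver was called with a pseudocount of 0.1 (2.96), on recovered reads with limma-voom (4.66) and without lung replicate 1 (1.06), and Eps8 in the same comparison lost its call with median-of-ratios scaling (0.87). Of 535 values of the members' differences in the 4 main comparisons, with 5 members followed in lung against liver, 526 kept direction and call. Those 5 were Ezr, Pls1, Eps8, Espn and Cdhr5. The other members, near 0 in that comparison as deposited, were left out, which raises the count kept. Among them Myo7b turned from 0.086 to -0.078 with median-of-ratios scaling. Counts over all genes moved by over 1.5 times with mitochondrial genes left out, to 2704 lower in small intestine than in kidney, and to 2731 higher and 1746 lower in kidney than in the mean of liver and lung. With median-of-ratios scaling they moved to 3104 higher and 2998 lower in lung than in liver. The cause was not tested.

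For the tissue-by-tissue comparisons, tried after the data were seen, kidney against lung turned sign for Ezr, to 0.86 with median-of-ratios scaling and 0.47 with mitochondrial genes left out, and for Myo1a, to 0.022 with median-of-ratios scaling and between -0.46 and 0.084 with 1 library left out, being above 0 without lung replicate 1. With median-of-ratios scaling the genes higher and lower over all were 2576 and 2403 for small intestine against lung, 2561 and 2364 for small intestine against liver, and 2780 and 2764 for kidney against lung, and 1799 were lower in kidney than in liver. With mitochondrial genes left out 2247 were higher and 4020 lower in kidney than in lung, and 5159 higher in kidney than in liver, which was 4054 with a pseudocount of 0.1. The cause was not tested.

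With the replicate number as a block, 3058 genes were higher and 1747 lower in small intestine than in kidney, and 9 members were called. The numbers are not stated to mark a mouse, and the differences between replicates correlated at -0.22 to 0.05 between tissues over 16328 genes, so the block was not used. Depth limits the members in lung and liver, where 4 values rest on fewer than 3 reads, and 2 libraries per tissue limit every test.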
